A study of Mus musculus with 21 samples.

Results

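Solute carriers are membrane proteins that move sugars, amino acids, lactate, metals, nucleotides and vitamins across the cell surface and the membranes of organelles. The solute carrier genes of the mouse gonad arrays were taken as every gene whose single symbol in the array annotation started with Slc and a digit. The annotation named 109 such genes on 127 of the 16128 probes. Of these, 62 genes on 68 probes were measured on 3 or more arrays in every one of the 5 groups and were tested among 4465 genes in all, and 47 had too few values for a test. The study compared whole gonads by total RNA on 21 arrays that each held 2 sources of RNA. On 4 arrays wild type whole ovary was set against wild type whole testis, on 4 wild type testis of 15 day old mice against adult wild type testis, and on 4 Spo11 knockout whole testis against wild type whole testis. A further 4 arrays set wild type testis, and 5 wild type ovary, against a commercial universal mouse reference RNA. Spo11 is the enzyme that cuts DNA to start meiotic recombination, and male germ cells without it stop in meiosis. The age of the mice was given only for the 15 day and adult testes, and neither the strain, the knockout allele nor the pooling of animals was stated. The channel orders were balanced or nearly so within each group.

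Solute carriers are grouped into numbered families by sequence, and members of a family often carry related substrates. In the testis the later germ cells lie behind a barrier of Sertoli cells, which take up glucose and export lactate that the germ cells then import. In the ovary, cells of the follicle pass nutrients and small molecules to the oocyte. Several carriers work with partner proteins, among them the lactate carriers of the Slc16 family, which reach the membrane with basigin or embigin.

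The values below are log2 ratios relative to the median of each array, ± the standard error of the fit. A ratio between sources says nothing of how much RNA of a carrier either source held. The source named first (ovary, 15 day, knockout) was taken as the likely numerator, since no label states it. In ovary against testis the flagellar gene Tekt2 was at -4.68 and the oocyte gene Gdf9 at 1.0 (adjusted p = 0.0176), while the spermatid gene Oaz3 pointed the other way at 0.79 (adjusted p = 0.0178) and the oocyte gene Zp2 did not pass the threshold at 0.30 (adjusted p = 0.25). With the opposite numerator all directions below would be reversed. Arrays carried between 6452 and 14012 values. Replicate 1 of ovary against testis had the fewest, and 22 of the 62 tested carriers had no value on it. Nothing says that the arrays of a comparison held separate animals, so a p-value here speaks of the scatter among arrays alone, which may be technical. Spo11 itself was not named on the array, which left no check of the knockout by its own transcript.

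In ovary against testis, 13 carriers were higher in ovary and 25 higher in testis at an adjusted p under 0.05, with 24 not past the threshold. Over all 4465 genes, 59% were called, 22.4% higher in ovary and 36.5% lower, against 20.97% and 40.32% of the carriers, so the shares of the carriers lay near the background. Their median log2 ratio was -0.14, beside -0.18 for all genes. The counts by substrate group below hold few genes each, were not tested, and stand beside the same 22.4% and 36.5% of all genes. The called ratios ran from 0.49 to 1.79 on the ovary side and from -4.17 to -0.46 on the testis side. All 13 carriers called higher, and 21 of the 25 called lower, had the same sign on every array with a value.

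**Figure D1:**
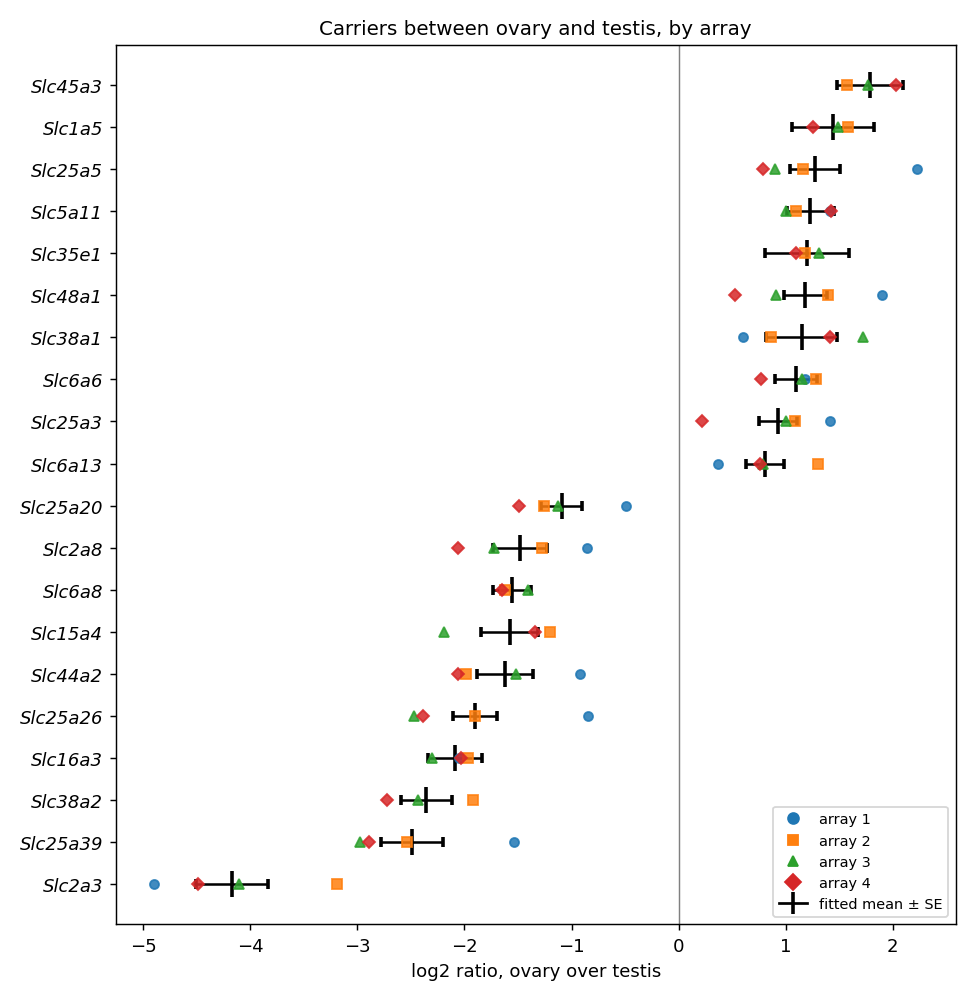
The 10 tested carriers most raised in ovary and the 10 tested carriers most raised in testis. Values are log2 ratios of ovary over testis, with 1 point per array and the fitted mean ± SE. Points right of 0 are higher in ovary; Slc2a3 lies between -4.9 and -3.19, below every other carrier plotted.

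The glucose carriers stood on the testis side. Slc2a3, a facilitative glucose carrier best known from neurons, was at -4.9, -3.19, -4.11 and -4.49 on the 4 arrays. The fitted ratio of -4.17 ± 0.34 was an 18.03-fold higher signal in testis (adjusted p = 1.873e-09), and every array lay far below 0. Slc2a8, a glucose carrier of intracellular membranes, was at -0.86, -1.275, -1.72 and -2.06 (-1.48 ± 0.25, adjusted p = 3.914e-05). Array 1 was nearest to 0. Slc2a4, the insulin-responsive glucose carrier of muscle and fat, had values of -0.68, -0.45 and -1.09 on 3 arrays (-0.74 ± 0.19, adjusted p = 0.0023). The 3 tested members of the Slc2 family were thus all lower in ovary. Slc2a1, the widely expressed glucose carrier of the same family, had too few values for a test and was at 0.25, 0.95 and 0.45.

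Other carriers of the sugar group, which was defined by family number, went both ways. Slc45a3, a member of a family related to sucrose carriers, was at 1.57, 1.765 and 2.035, with no value on array 1. Its fitted ratio of 1.79 ± 0.31 (3.46-fold, adjusted p = 4.477e-05) was the highest of the 62 carriers in ovary. Its 2 probes gave 1.08 and 2.50, both above 0. Slc5a11, a sodium-coupled carrier of myo-inositol, was at 1.41, 1.1, 1 and 1.42 (1.23 ± 0.22, adjusted p = 6.05e-05), and its 4 arrays lay close together. Its family mate Slc5a6, which carries the vitamins biotin and pantothenate, was lower in ovary at -0.81 ± 0.18. Of the 6 tested genes of this group 2 were higher in ovary and 4 lower.

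The lactate carriers divided. Slc16a3, known for the export of lactate from glycolytic cells, was at -2.05, -1.97, -2.3 and -2.03. The arrays differed by little, and the fitted ratio was -2.09 ± 0.25 (4.25-fold higher in testis, adjusted p = 4.767e-07). Slc16a1, the widespread carrier that moves lactate in either direction, was at 0.6, 0.96 and 0.16 on 3 arrays (0.57 ± 0.21, adjusted p = 0.0249) and so higher in ovary. Slc16a6, a carrier of ketone bodies, was at -0.67, -0.51 and -0.85 (-0.68 ± 0.25, adjusted p = 0.0239). No array of Slc16a1 overlapped with those of its 2 family mates. Among the partner proteins, basigin (Bsg) was lower in ovary at -1.05 ± 0.28 (adjusted p = 0.0028) and embigin (Emb) higher at 0.71 ± 0.21 (adjusted p = 0.0060). Through the arrays against the reference RNA, Slc16a3 was again lower in ovary at -1.72 ± 0.34 and embigin higher at 0.77 ± 0.28. There Slc16a1 was at 0.47 (adjusted p = 0.12), Slc16a6 at -0.50 (adjusted p = 0.18) and basigin at -0.45 (adjusted p = 0.34), and these did not pass.

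The mitochondrial carriers of the Slc25 family gave 4 genes lower and 2 higher in ovary among 7 tested, with a median of -1.05. Slc25a39, a carrier linked to mitochondrial glutathione, was at -1.54, -2.54, -2.98 and -2.89 (-2.49 ± 0.29, 5.61-fold higher in testis, adjusted p = 3.735e-07). Slc25a26, the carrier of S-adenosylmethionine, was at -0.85, -1.9, -2.47 and -2.39 (-1.90 ± 0.21, adjusted p = 1.032e-07). Array 1 was the one nearest to 0 for both genes. Slc25a20, which brings acylcarnitines into mitochondria for fatty acid oxidation, was at -0.49, -1.26, -1.13 and -1.49 (-1.09 ± 0.19, adjusted p = 5.932e-05). Slc25a10, the dicarboxylate carrier, was lower as well at -1.05 ± 0.35. On the ovary side stood Slc25a5 and Slc25a3. Slc25a5, an exchanger of ADP for ATP encoded on the X chromosome, was at 2.23, 1.165, 0.905 and 0.79 (1.27 ± 0.23, adjusted p = 7.943e-05). Its 2 tested probes differed, with means of 1.88 and 0.15, so its ratio depends on the probe, and array 1, the highest, had a value for the first probe alone. Slc25a3, the phosphate carrier, was at 1.41, 1.09, 1 and 0.22 (0.93 ± 0.18, adjusted p = 1.103e-04), with array 4 nearest to 0. A further probe of Slc25a3 with too few values for the test was at -0.03 and 0.59. With it averaged in the ratio was 0.84 (adjusted p = 0.0025).

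The promoters of a pair from each of these families are shown because their members were called in opposite directions between ovary and testis. Each runs 250 bases up to the annotated start, 5′ to 3′ on the strand of the gene, from the RefSeq promoter table of build GRCm38.p6. The intervals are chr11:120948817-120949066 on the plus strand for Slc16a3, chr3:104638414-104638663 on the plus strand for Slc16a1, chr11:102407518-102407767 on the minus strand for Slc25a39 and chrX:36795347-36795596 on the plus strand for Slc25a5. Capitals mark GGGCGG, the GC box, and its reverse complement CCGCCC.
Slc16a3: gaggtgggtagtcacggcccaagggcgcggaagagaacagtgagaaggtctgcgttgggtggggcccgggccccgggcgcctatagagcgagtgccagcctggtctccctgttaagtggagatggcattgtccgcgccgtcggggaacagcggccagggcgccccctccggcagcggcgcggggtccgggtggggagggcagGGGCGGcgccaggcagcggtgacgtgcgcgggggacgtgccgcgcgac
Slc16a1: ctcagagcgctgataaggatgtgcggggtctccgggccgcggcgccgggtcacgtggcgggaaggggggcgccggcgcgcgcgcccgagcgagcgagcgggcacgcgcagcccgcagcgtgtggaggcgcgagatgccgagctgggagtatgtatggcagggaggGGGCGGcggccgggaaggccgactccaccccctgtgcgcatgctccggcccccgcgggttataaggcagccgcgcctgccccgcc
Slc25a39: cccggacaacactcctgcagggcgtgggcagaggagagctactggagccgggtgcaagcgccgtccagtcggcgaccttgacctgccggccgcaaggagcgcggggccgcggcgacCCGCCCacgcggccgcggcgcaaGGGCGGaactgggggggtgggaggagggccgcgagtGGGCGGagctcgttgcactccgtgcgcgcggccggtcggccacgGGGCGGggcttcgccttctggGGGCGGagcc
Slc25a5: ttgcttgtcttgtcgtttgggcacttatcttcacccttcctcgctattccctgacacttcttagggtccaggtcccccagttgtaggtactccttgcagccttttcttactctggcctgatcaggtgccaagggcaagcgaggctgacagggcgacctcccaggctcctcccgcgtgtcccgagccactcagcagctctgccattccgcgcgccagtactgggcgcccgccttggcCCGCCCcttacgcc

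The Slc25a39 window held 5 GC boxes and the others 1 each, and the windows held between 14 and 37 CpG pairs, fewest in Slc25a5. The table listed a promoter for 81 of the 109 carriers and for 45 of the 62 tested, and Slc2a3 was not among them. A table entry holds 300 bases, 250 before the annotated start and 50 after it. Over this whole entry, GGGCGG on either strand was found for 80.2% of the 81 carriers, 69.7% of the genes named on the array and 38.2% of all genes in the table. It was found for 40 of the 45 tested carriers (88.9%), among them 16 of 17 higher in testis and 6 of 9 higher in ovary. The share was not counted over all tested genes or over all genes called in either direction. These counts therefore cannot be read as particular to the carriers or to a side. The median number of CpG pairs was 19 for the 81 carriers, 23 for the 45 tested and 23 for the genes on the array. The cAMP response element TGACGTCA was found for 1 carrier, Slc25a36 (1.23%, against 3.54% on the array), and TCAAGGTCA, a site of steroidogenic factors, for 0 (against 0.261%). TGACGT was in 17.3% of carriers and 13.6% of genes on the array, CCAAT in 42% and 43.2%, TATAAA in 9.88% and 8.97%, CANNTG in 79% and 66.6%, and CACGTG in 19.8% and 12.8%. TGACGTCA contains TGACGT, and CACGTG is a form of CANNTG. The GC box was picked for display after the counts of these 8 motifs, 6 of them added to 2 listed earlier, had been seen, and so were the 4 genes. Letters in a window are a description and show no bound factor.

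Amino acid carriers and their relatives had 4 genes higher and 4 lower in ovary among 11. Slc1a5, an exchanger of glutamine and other neutral amino acids, was at 1.58, 1.49 and 1.26 on 3 arrays (1.44 ± 0.39, 2.72-fold, adjusted p = 0.0036). Slc6a6, the taurine carrier, was at 1.18, 1.28, 1.15 and 0.77 (1.10 ± 0.19, adjusted p = 5.433e-05). Slc6a13, a carrier of GABA and taurine, was at 0.37, 1.3, 0.79 and 0.76 (0.81 ± 0.18, adjusted p = 4.878e-04). All arrays of the 3 genes lay above 0, which the rule for naming them required. Slc6a8, the X-linked creatine carrier of the same family, was at -1.62, -1.41 and -1.65 (-1.56 ± 0.18, adjusted p = 2.879e-07). A further probe of Slc6a8 with too few values for the test went the other way, at 2.23, 0.49 and 1.98, and with it averaged in the ratio was 0.0033 (adjusted p = 0.999). The call of Slc6a8 thus belongs to 1 probe.

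The sodium-coupled Slc38 carriers of neutral amino acids split within the family. Slc38a2 was at -1.92, -2.43 and -2.72 (-2.36 ± 0.24, 5.12-fold higher in testis, adjusted p = 1.246e-07). Slc38a4 was at -0.99, -1.05 and -1.04 (-1.03 ± 0.24), and Slc38a9, a lysosomal member that senses arginine, at -0.84, -1.07, -0.72 and -1.44 (-1.02 ± 0.16). Slc38a1 was instead at 0.6, 0.865, 1.72 and 1.41 (1.15 ± 0.33, adjusted p = 0.0051). Its 2 probes averaged 0.37 and 2.37, and with 1 probe per gene it no longer passed (0.37, adjusted p = 0.32). Slc3a2, the heavy chain of several amino acid exchangers and not itself a carrier, was at -0.17 ± 0.18, and its light chain Slc7a6 at 0.62 ± 0.27 (adjusted p = 0.055). Neither passed the threshold.

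Among the nucleotide sugar carriers of the Slc35 family, 1 of 6 was higher and 3 were lower in ovary. Slc35e1, whose substrate is not settled, was at 1.18, 1.31 and 1.1 (1.20 ± 0.39, adjusted p = 0.0141) and did not pass without array 2 (1.21, adjusted p = 0.0518) or array 3 (1.14, adjusted p = 0.0655). Slc35a5 was at -0.25, -1.32, -1.06 and -1.48 (-1.03 ± 0.21), and Slc35c2 and Slc35f2 were lower at -0.46 ± 0.19 and -0.72 ± 0.30. Slc48a1, which carries heme out of lysosomes, was higher in ovary at 1.9, 1.4, 0.91 and 0.53 (1.19 ± 0.20, adjusted p = 5.114e-05). Its array 1 was the highest and array 4 the lowest. Slc31a2, a copper carrier of intracellular membranes, was higher at 0.78 ± 0.15, while Slc31a1, the copper carrier of the cell surface, was at 0.42 ± 0.22 and did not pass (adjusted p = 0.11).

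The remaining carriers higher in testis came from several groups. Slc44a2, a choline carrier, was at -0.92, -1.99, -1.52 and -2.06 (-1.62 ± 0.26, adjusted p = 2.05e-05). Slc15a4, a lysosomal carrier of histidine and small peptides, was at -1.2, -2.19 and -1.34 (-1.58 ± 0.26, adjusted p = 7.276e-05). Both were below 0 on every array with a value, which the rule for naming them required. Slc22a7, an organic anion carrier, was at -0.995 ± 0.27, Slc29a1, a nucleoside carrier, at -0.68 ± 0.28, and Slc39a8, a zinc and manganese carrier, at -0.69 ± 0.24. Slc22a5, which takes up carnitine, was at -0.97 ± 0.23 with array 1 at 0.33 and the others between -1.86 and -1.03. The anion exchangers of the Slc4 family went apart, with the erythrocyte form Slc4a1 at -0.96 ± 0.21 and the widespread Slc4a2 at 0.49 ± 0.15. Hbb-b1, the 1 tested gene of 9 erythroid markers, was higher in ovary at 1.12, and the part of red cells in the Slc4a1 ratio was not tested.

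Of the 31 families with a tested member, 13 had more than 1, and 7 of these held carriers called in opposite directions between ovary and testis. They were the families 4, 5, 6, 16, 25, 35 and 38. Since 22.4% of all genes were called higher in ovary and 36.5% lower, families of several members can hold both calls without being unusual, and the count is a description only.

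**Figure D2:**
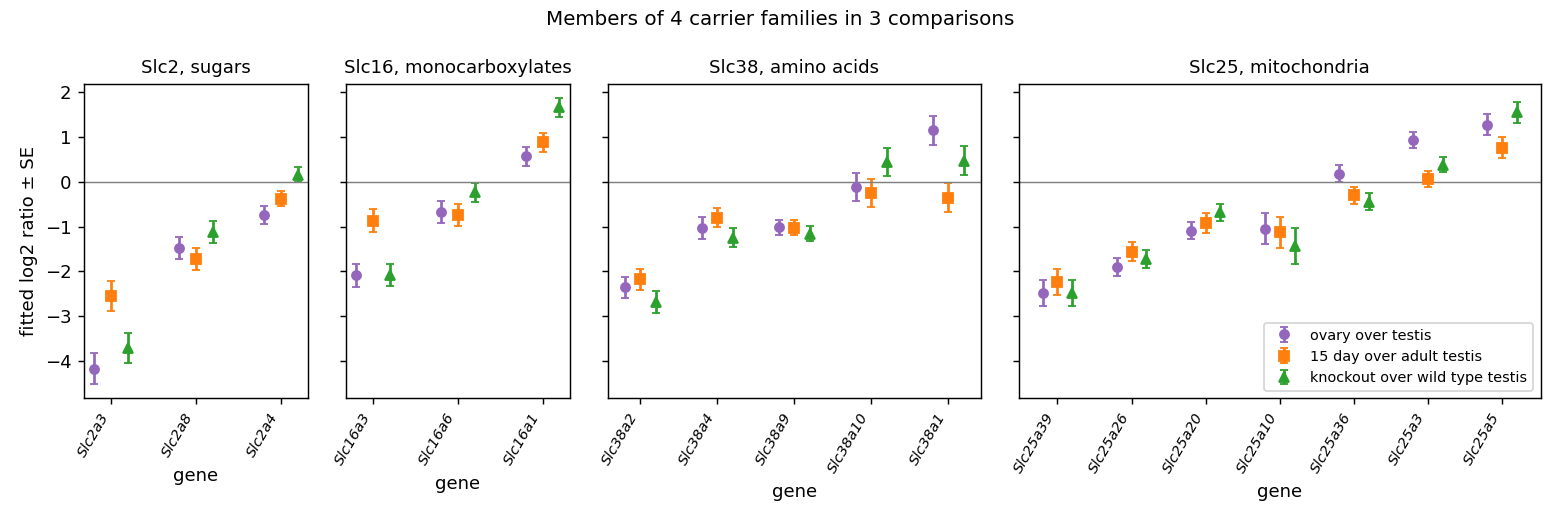
Fitted log2 ratios ± SE of every tested member of the Slc2, Slc16, Slc38 and Slc25 families in the 3 direct comparisons (circles, ovary over testis; squares, 15 day over adult testis; triangles, knockout over wild type testis). The Slc2 members lie below 0 in ovary and at 15 days, while Slc16, Slc38 and Slc25 each hold members on both sides of 0 in ovary against testis.

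The arrays of ovary and of testis against the reference RNA gave the same contrast without sharing an array with the direct comparison. Through the reference, 11 carriers were higher in ovary and 17 lower, which are 17.74% and 27.42% of the carriers, beside 17.6% and 28.7% (46.4% either way) of all genes. Of the 25 carriers lower in the direct comparison 17 were also lower through the reference, and of the 13 higher 9 were also higher. The lower calls not repeated were those of Slc16a6, Slc25a20, Slc35c2, Slc35f2, Slc38a4, Slc39a8, Slc4a1 and Slc66a2. The higher calls not repeated were those of Slc16a1, Slc1a5, Slc35e1 and Slc4a2. Through the reference, Slc1a5 was at 1.11 (adjusted p = 0.0501), Slc35e1 at 1.29 (adjusted p = 0.0501) and Slc25a20 at -0.63 (adjusted p = 0.053). Slc38a4 was at -0.34 (adjusted p = 0.33) and Slc39a8 at -0.18 (adjusted p = 0.67), nearer to 0 than in the direct comparison. None of the 62 had opposite calls. The overlap was not counted over all genes, so these counts cannot be read as particular to the carriers. The difference between the direct ratio and the ratio through the reference passed the threshold for 0 carriers in limma, with 0 at an unadjusted p under 0.05, beside 0% of all genes adjusted and 1.657% unadjusted.

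**Figure D3:**
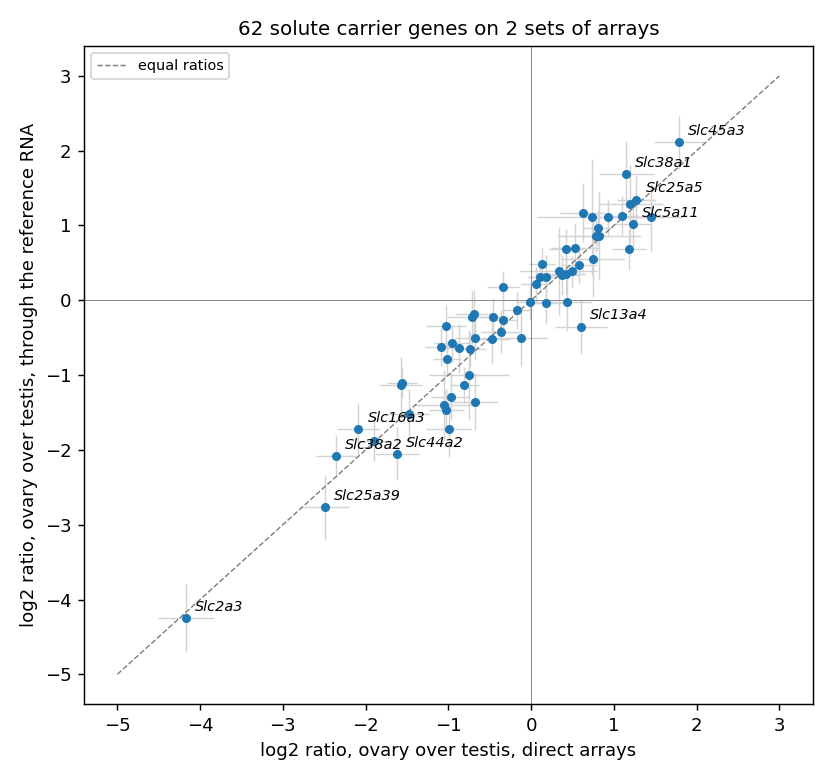
Each of the 62 tested carriers, with the direct log2 ratio of ovary over testis (x axis) against the ratio through the reference RNA (y axis), bars ± SE, and a dashed line of equal ratios. Slc2a3 lies at the lower left at -4.17 and -4.25, and Slc45a3 at the upper right at 1.79 and 2.11.

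Each organ was also set against the reference for leading carriers that were called both directly and through the reference. For Slc2a3, testis was at 3.77, 5.99, 4.14 and 4.14 over the reference (4.51 ± 0.34, adjusted p = 4.088e-10). Ovary was at -0.15, 0.58, 0.47, 0.27 and 0.15 (0.26 ± 0.30, adjusted p = 0.57), so every testis array lay above every ovary array. Slc25a39 was at 2.41 ± 0.33 in testis and -0.35 ± 0.26 in ovary, and Slc16a3 at 1.36 ± 0.25 and -0.36 ± 0.23. Slc38a2 was above the reference in testis at 0.82 ± 0.21 and below it in ovary at -1.26 ± 0.18. For Slc45a3, ovary was at 1.31, 2.31, 2.44, 2.56 and 2.035 (2.13 ± 0.24, adjusted p = 1.322e-06), and testis at 0.019 ± 0.27. Slc25a5 and Slc5a11 were below the reference in testis at -1.29 ± 0.23 and -1.70 ± 0.22. The 2 probes of Slc25a5 were unlike here too, with testis means of -2.02 and -0.07. In ovary Slc25a5 was at 0.054 ± 0.21 and Slc5a11 at -0.67 ± 0.20.

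Testis of 15 day mice holds the first wave of meiosis and lacks the later germ cells of the adult. In this comparison 6 carriers were higher at 15 days and 22 higher in the adult, which are 9.677% and 35.48% of the carriers, beside 18% and 28.1% (46.1% either way) of all genes. Their median was -0.23, against -0.07 for all genes. The 4 arrays fell into 2 runs of array numbers, 2 and 5, and all 28 carriers called had the same sign in the means of both runs. The calls came from these same 4 arrays, so this shared sign is no independent check. With run 2 alone 0 carriers were called higher and 10 lower, and with run 5 alone 4 and 17.

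**Figure D4:**
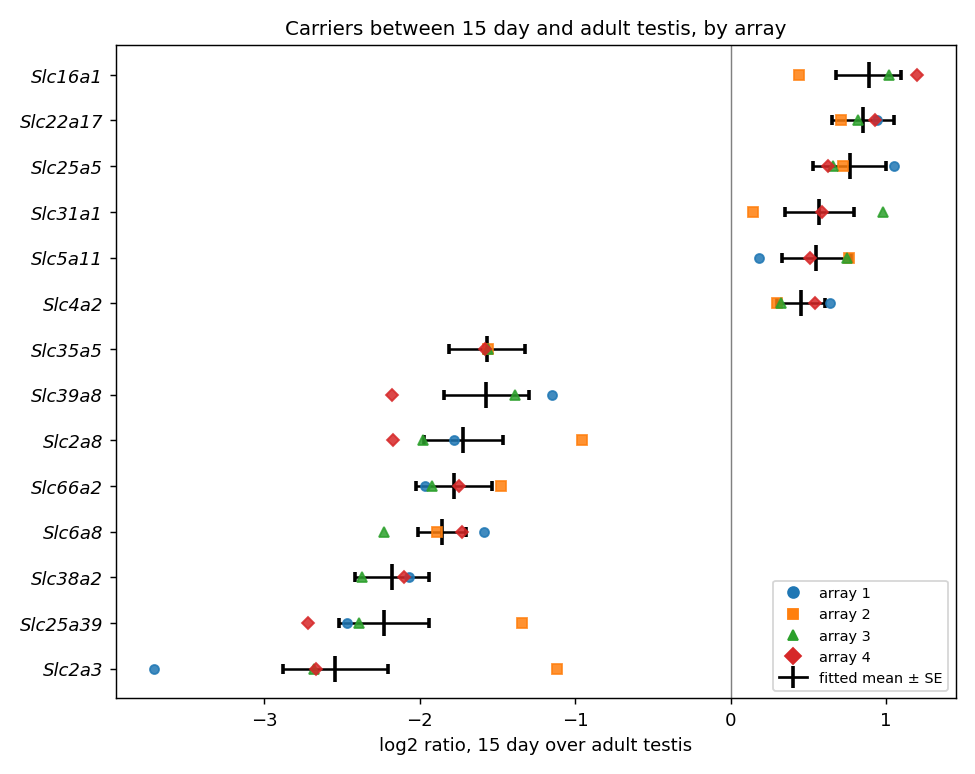
The 6 tested carriers called higher at 15 days and the 8 tested carriers most raised in the adult. Values are log2 ratios of 15 day over adult testis, with 1 point per array and the fitted mean ± SE. The carriers left of 0 reach -3.71 (Slc2a3, array 1), while none right of 0 exceeds 1.2.

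Among the 62 tested carriers Slc2a3 again had the lowest ratio, at -3.71, -1.12, -2.68 and -2.67. The fitted value was -2.55 ± 0.34 (5.84-fold higher in the adult, adjusted p = 3.127e-06), with means of -2.42 in run 2 and -2.68 in run 5. Array 2 was nearest to 0 and array 1 farthest, and both belong to run 2. Slc2a8 was at -1.78, -0.955, -1.98 and -2.175 (-1.72 ± 0.25, adjusted p = 1.226e-05; run means -1.37 and -2.08). Slc2a4 was at -0.38 ± 0.17 and did not pass (adjusted p = 0.069).

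Mitochondrial and amino acid carriers followed among those raised in the adult. Slc25a39 was at -2.47, -1.34, -2.39 and -2.72 (-2.23 ± 0.29, adjusted p = 3.089e-06; run means -1.91 and -2.56). Slc38a2 was at -2.07, -2.37 and -2.1 (-2.18 ± 0.24, 4.53-fold, adjusted p = 7.005e-07) on 3 arrays that lay close together. Slc6a8 was at -1.59, -1.89, -2.23 and -1.73 (-1.86 ± 0.15, adjusted p = 9.382e-09), and with its other probe averaged in the ratio was -1.04 and did not pass (adjusted p = 0.35). Slc25a26 was at -1.56 ± 0.21, Slc25a10 at -1.13 ± 0.35 and Slc25a20 at -0.92 ± 0.22. Of 7 mitochondrial carriers 4 were higher in the adult and 1 at 15 days, and of 11 amino acid carriers 5 and 0. Over all genes 28.1% were higher in the adult and 18% at 15 days, and neither group was tested.

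Slc66a2, a member of a family of lysosomal amino acid carriers, was at -1.97, -1.48, -1.92 and -1.75 (-1.78 ± 0.24, 3.43-fold, adjusted p = 4.731e-06). Slc35a5 was at -1.56, -1.56 and -1.58 (-1.57 ± 0.24, adjusted p = 3.106e-05), the closest arrays of any carrier named. Slc39a8 was at -1.15, -1.39 and -2.18 (-1.57 ± 0.27, adjusted p = 8.581e-05) and did not pass in run 2 alone (-1.15, adjusted p = 0.091). The lactate carriers were again on opposite sides. Slc16a3 was at -0.4, -0.62, -1.11 and -1.35 (-0.87 ± 0.25, adjusted p = 0.0078), with the arrays of run 5 farther from 0 than those of run 2. Slc16a6 was at -0.74 ± 0.25 (adjusted p = 0.0197). Basigin was at -1.01 ± 0.28 and embigin at 0.089 ± 0.21.

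The carriers higher at 15 days had small ratios, and most calls depended on single arrays or a run. Slc16a1 was at 0.44, 1.02 and 1.2 (0.89 ± 0.21, adjusted p = 0.0020), with the lowest value in run 2 (0.44, adjusted p = 0.43 in that run alone). Slc22a17, a receptor for lipocalin, was at 0.94, 0.71, 0.82 and 0.93 (0.85 ± 0.20, adjusted p = 0.0016). Its 4 arrays lay close together, and the call was lost in run 2 alone (0.83, adjusted p = 0.058). Slc25a5 was at 1.05, 0.725, 0.66 and 0.625 (0.77 ± 0.23, adjusted p = 0.0103), with probe means of 1.22 and 0.063, and did not pass without array 1 (0.67, adjusted p = 0.058). Slc31a1 was at 0.14, 0.98 and 0.59 (0.57 ± 0.22, adjusted p = 0.0451) and was lost without array 3 (0.37, adjusted p = 0.31) or array 4 (0.56, adjusted p = 0.14), and without array 1, on which it has no value (adjusted p = 0.054). Slc5a11 was at 0.18, 0.76, 0.75 and 0.51 (0.55 ± 0.22, adjusted p = 0.0461) and was lost without array 2, 3 or 4 (0.48, 0.48 and 0.56). Slc4a2 was at 0.64, 0.3, 0.32 and 0.54 (0.45 ± 0.15, adjusted p = 0.0204) and was lost without array 1 or 4 (0.39 and 0.42). With array 1 or array 4 left out, 3 carriers were called higher at 15 days. With only the 4 arrays of this comparison in the fit 15 were called.

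In the Spo11 knockout testis, 18 carriers were higher than in the wild type and 18 lower, which is 29.03% of the carriers each way, beside 26.7% and 30.5% (57.2% either way) of all genes. The median of the carriers was 0.13, against -0.04 for all genes. The called ratios ran from -3.72 to -0.57 and from 0.48 to 2.33. All 18 carriers called lower and 16 of the 18 called higher had the same sign on every array with a value. All 4 arrays belonged to run 1, which held no other comparison.

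**Figure D5:**
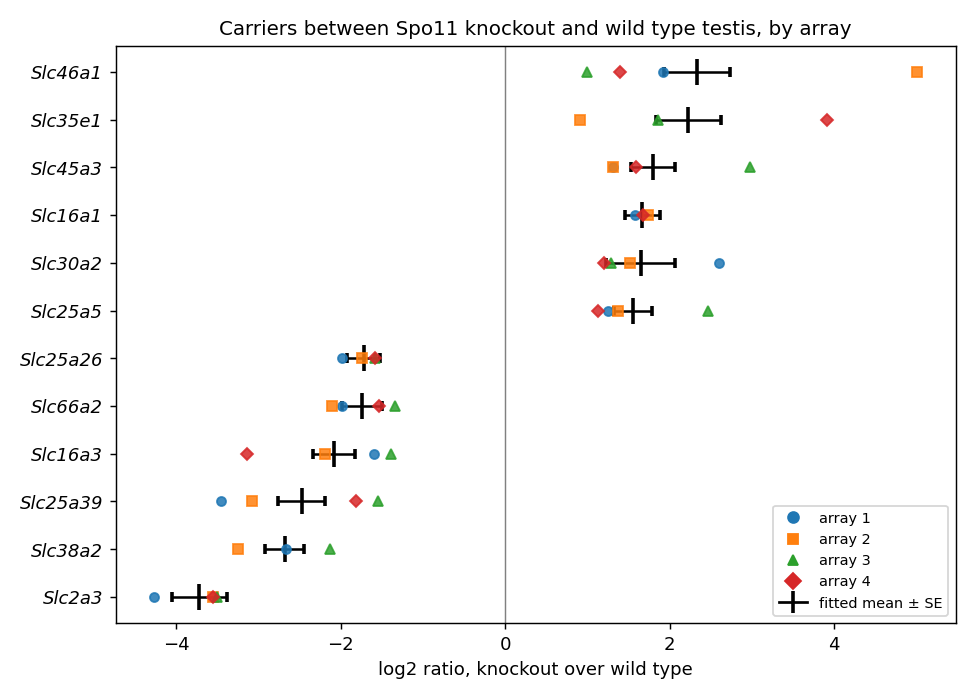
The 6 tested carriers most raised and the 6 tested carriers most lowered in Spo11 knockout testis. Values are log2 ratios of knockout over wild type, with 1 point per array and the fitted mean ± SE. Slc46a1 spreads from 0.99 to 5.01 over its arrays, while Slc16a1 lies between 1.58 and 1.74.

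Slc2a3 was at -4.27, -3.55, -3.5 and -3.55 in the knockout (-3.72 ± 0.34, 13.2-fold lower, adjusted p = 1.173e-08). Array 1 was the lowest, and the other arrays were nearly equal. Slc38a2 was at -2.67, -3.25 and -2.13 (-2.68 ± 0.24, adjusted p = 3.007e-08), and its relatives Slc38a4 and Slc38a9 were lower at -1.25 ± 0.21 and -1.16 ± 0.16. Slc25a39 was at -3.46, -3.08, -1.55 and -1.81 (-2.48 ± 0.29, adjusted p = 5.087e-07), and arrays 1 and 2, which had wild type in the first channel, lay below arrays 3 and 4, which had knockout there. The call held with channel order as a term in the fit.

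Slc16a3 was at -1.6, -2.19, -1.39 and -3.14 (-2.08 ± 0.25, 4.23-fold lower, adjusted p = 6.583e-07). Slc66a2 was at -1.99, -2.1, -1.34 and -1.54 (-1.74 ± 0.24, adjusted p = 3.941e-06), and Slc25a26 at -1.99, -1.74, -1.58 and -1.58 (-1.72 ± 0.21, adjusted p = 4.944e-07). Every array of these 3 genes lay below -1. Slc2a8 was lower at -1.12 ± 0.25, Slc12a7, a potassium chloride cotransporter, at -1.66 ± 0.26 and Slc39a8 at -1.45 ± 0.24. A further probe of Slc12a7 with too few values for the test was nearer to 0, at -0.2 and -0.48. The tested probe of Slc6a8 was at -1.65 ± 0.15, while its other probe was at 15.97, 1.83 and -0.4 on 3 arrays, so the call again belongs to 1 probe. Basigin was at -0.80 ± 0.28 (adjusted p = 0.0188) and embigin at -0.17 ± 0.21 (adjusted p = 0.51).

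On the other side, Slc46a1, the proton-coupled folate carrier, was at 1.92, 5.01, 0.99 and 1.39 (2.33 ± 0.40, adjusted p = 6.507e-05). Without array 2, which stood far above the rest, it was 1.43 and still past the threshold. Slc35e1 was at 0.91, 1.86 and 3.91 (2.23 ± 0.39, adjusted p = 1.079e-04), and without array 4 at 1.39. Slc45a3 was at 1.31, 1.305, 2.98 and 1.595 (1.80 ± 0.27, 3.48-fold, adjusted p = 9.749e-06), where array 3 had a value for 1 of its 2 probes. Slc16a1 was at 1.58, 1.74 and 1.68 (1.67 ± 0.21, 3.17-fold, adjusted p = 2.311e-06), the closest arrays among these carriers. Slc30a2, a zinc exporter, was at 2.6, 1.52, 1.28 and 1.2 (1.65 ± 0.42, adjusted p = 0.0023). Slc25a5 was at 1.25, 1.365, 2.47 and 1.125 (1.55 ± 0.23, adjusted p = 9.435e-06), with array 3 again resting on 1 probe. Its probe means were 1.955 and 0.71.

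Further carriers higher in the knockout were Slc48a1 at 1.53 ± 0.23, Slc1a5 at 1.16 ± 0.39, Slc22a17 at 1.11 ± 0.20, Slc3a2 at 1.01 ± 0.18, Slc29a1 at 1.01 ± 0.28 and Slc7a6 at 0.94 ± 0.31. In the group of vitamin, nucleoside and lipid carriers 3 of 6 were higher and 0 lower, and in the nucleotide sugar group 3 of 6 were higher and 2 lower. Over all genes 26.7% were higher and 30.5% lower, and neither group was tested. Slc27a4, a fatty acid carrier, was called higher at 0.94 ± 0.39 with 1 of its 4 arrays at -1.32. The standard deviation of its own 4 arrays was 1.65, so the call rests on the spread shared with the other groups.

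Adult or wild type testis was the second source in all 3 direct comparisons, and whether the same RNA was used is not stated. Side by side, Slc2a3 was at -4.17 in ovary, -2.55 at 15 days and -3.72 in the knockout. Slc25a39 was at -2.49, -2.23 and -2.48, Slc38a2 at -2.36, -2.18 and -2.68, and Slc16a3 at -2.09, -0.87 and -2.08. On the other side Slc16a1 was at 0.57, 0.89 and 1.67, and Slc25a5 at 1.27, 0.77 and 1.55. Slc45a3 was at 1.79, -0.085 and 1.80. Slc44a2 was at -1.62, -0.78 and 0.13, and only the last did not pass.

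The knockout ratio was also tested against the 15 day ratio. The difference passed for 2 of the 62 carriers, beside 2.4% of all genes (2.04% higher and 0.358% lower), and both were higher in the knockout ratio. Slc45a3 differed by 1.88 ± 0.38 (adjusted p = 0.0086) and Slc3a2 by 1.02 ± 0.26 (adjusted p = 0.0356). Slc45a3 passed whichever of the 8 arrays was left out, with differences from 1.49 to 2.05. Its 2 probes were unlike, at 0.30 and -0.51 at 15 days and at 0.85 and 2.21 in the knockout, and with 1 probe per gene, the one with a value on most arrays, the difference was 2.72. The size of the difference therefore depends on the probe. Slc3a2 did not pass without knockout array 1 (1.004, adjusted p = 0.071) or 3 (0.84, adjusted p = 0.11) or without any 1 of the 15 day arrays (0.98 to 1.10, adjusted p from 0.054 to 0.10), nor with arrays scaled to 1 spread (0.81, adjusted p = 0.12). At an unadjusted p under 0.05 there were 12 carriers of 62, beside 14.83% of all genes. Among the carriers that did not pass after adjustment, the difference was -1.21 ± 0.36 for Slc16a3 (adjusted p = 0.081), -1.17 ± 0.48 for Slc2a3 (adjusted p = 0.24), 1.66 ± 0.57 for Slc46a1 (adjusted p = 0.15) and 1.21 ± 0.40 for Slc29a1 (adjusted p = 0.12). The knockout arrays lay in run 1 and the 15 day arrays in runs 2 and 5, so a difference between the comparisons and one between runs cannot be told apart.

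Other genes of membrane transport, from pumps and channels to ABC transporters, numbered 45. In ovary 13 were higher (28.89%) and 12 lower (26.67%), beside 22.4% and 36.5% of all genes. At 15 days 9 (20%) and 11 (24.44%) were, beside 18% and 28.1%. In the knockout 12 (26.67%) and 13 (28.89%) were, beside 26.7% and 30.5%. The same shares of all genes stand beside the list counts that follow, which were not tested. Genes of lists named after cell types also moved in these comparisons. The name of a list does not show that an organ held that cell type. Amhr2 and Inha stand in the Sertoli list and in the granulosa, theca and luteal list, and are counted in both. In ovary against testis, 3 of 3 smooth muscle genes (1.59 to 2.43) 6 of 8 stroma genes (-1.22 to 2.97), 3 of 4 granulosa, theca and luteal genes (-1.10 to 2.85), 3 of 4 Leydig genes (-0.75 to 4.01) and 3 of 5 macrophage and leukocyte genes (-0.17 to 2.05) were higher, and 3 of 3 late spermatocyte genes (-2.55 to -1.55) and 6 of 8 early meiotic prophase genes (-4.69 to 0.048) were lower. In the knockout 8 of 10 Sertoli genes (0.093 to 2.06), 3 of 3 smooth muscle genes (0.92 to 1.69), 3 of 4 granulosa, theca and luteal genes (0.78 to 1.84), 5 of 8 stroma genes (-1.34 to 2.09), 4 of 5 macrophage and leukocyte genes (-0.66 to 2.02) and 3 of 4 Leydig genes (-0.64 to 2.21) were higher, and 3 of 3 late spermatocyte genes (-3.49 to -1.94) were lower. At 15 days 4 of 10 Sertoli genes (-0.013 to 1.27), 3 of 3 smooth muscle genes (1.20 to 1.43), 3 of 4 granulosa, theca and luteal genes (0.29 to 1.51) and 5 of 8 stroma genes (-1.06 to 2.94) were higher. There 2 of 3 late spermatocyte genes (-2.43 to -0.79) and 2 of 4 Leydig genes (-2.91 to 1.39) were lower. Each range is that of the whole list, and in the knockout 2 stroma genes, 1 macrophage and leukocyte gene and 1 Leydig gene were lower. In ovary against testis 1 stroma gene and 1 granulosa, theca and luteal gene were lower. At 15 days 1 stroma gene was lower and 1 Leydig gene higher. In ovary 5 of 10 Sertoli genes were higher and 2 lower. There 1 of 2 spermatid genes went each way, and 1 of 4 spermatogonial genes was higher and 3 lower. Of 8 early meiotic prophase genes 1 was higher and 4 lower at 15 days, and 0 and 5 in the knockout. The part of cell composition in the ratios of the carriers was not tested. In whole organs, fewer cells of a type and less RNA per cell cannot be told apart.

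The 47 carriers without a test mostly lacked values in the knockout comparison, where 43 had fewer than 3 on any probe. In ovary against testis 36 of them had at least 3 values on a probe, all above 0 for 16 carriers and all below 0 for 11. Slc28a3, a sodium-coupled nucleoside carrier, was at -3.61, -4.64 and -3.93 in ovary against testis, at -3.99 and -3.92 at 15 days, and at -4.87, -4.3 and -3.78 in the knockout. Slc34a2, a sodium phosphate cotransporter, was at -2.41, -2.63 and -2.64 on 1 probe and -2.68, -3.13 and -3.03 on the other in ovary against testis. Both carriers were thus below 0 on every array with a value. Slc40a1, the iron exporter ferroportin, was at 2.4, 3.9 and 2.85, and Slc50a1, a sugar carrier, at 2.18, 1.92, 1.71 and 1.84, on the ovary side. Slc25a48 was at 2.01, 2.22 and 3.84.

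With a value on 3 arrays of the 3 direct comparisons as the only requirement, 2 more carriers entered. Slc30a3, a zinc carrier known from synaptic vesicles, was at -4.07 ± 0.37 in ovary (adjusted p = 8.174e-08), -3.60 ± 0.32 at 15 days and -3.86 ± 0.32 in the knockout. Its size was near that of Slc2a3 in ovary and in the knockout, and at 15 days its ratio lay below the -2.55 of Slc2a3. Slc45a4 was at -1.84 ± 0.20 in ovary (adjusted p = 6.786e-07), -0.19 ± 0.17 at 15 days and 0.30 ± 0.17 in the knockout, and the last pair did not pass. Probes of a gene did not always go together. In ovary against testis, an untested probe of Slc12a7 was at 0.81, 0.78 and 0.81 where the tested one averaged -0.47, and 1 of Slc6a6 at 0.17, -0.08 and 0.05 where the tested one averaged 1.10. In all, 6 tested carriers had 2 tested probes, and for 0 of them did the probe means differ in sign between ovary and testis.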

How the data were processed

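The authors deposited 1 value per probe and array, which were read here as log2 ratios of the 2 RNA sources of an array. Neither the labels nor the file headers state the unit; the reading rests on values of both signs centred near 0. The scanner, background correction and normalization are not given in the sources used here. Arrays of opposite channel order in a comparison correlated positively (r between 0.471 and 0.925), so no array was turned. Each array was centred on its median. A gene was the mean per array over its tested probes, where a probe needed values on 3 or more arrays in every one of the 5 groups (7561 probes). The limma package (version 3.58.1, R 4.3.3) fitted group means over all 21 arrays, with Benjamini-Hochberg adjustment over 4465 genes and a threshold of 0.05, and was tested on simulated data. Intensities were not used, which left dim probes in the tests. Precision is limited by the number of arrays.

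Groups came from the sample descriptions, and replicate numbers follow the deposit order. The probe annotation gave 1 symbol for 9604 probes, several for 213 and none for 6311; all 109 carriers were in the RefSeq gene table (GRCm38.p6). Named with values were the carriers past the threshold with 1 sign on every array, ranked by size: up to 10 each way in ovary against testis, 8 at 15 days and 6 in the knockout, with family mates beside them. The carriers, lists, motifs and tests were chosen with earlier results of these data known. Alternatives were other filters on missing values, no centring, scaling, 1 probe per gene, channel order as a term, runs as a block or alone, removal of extreme values, the comparison's own arrays, and each array left out.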

Additional observations from a re-analysis of the deposited data

Results flagged for a closer look

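In the knockout comparison, array 1 of Slc2a3 was at -4.27, apart from the other arrays, which lay between -3.55 and -3.5. Its gap took up 0.935 of the range of the 4 values. In all, 32 sets of 4 values were checked in this way and 1 stood apart, and chance flags about 1 in 20.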

How the results depend on the processing

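The carriers named with full values were recomputed under every alternative that gave a value, 648 times in all. Direction and side of the threshold held in 622, the threshold was missed in 25, of which 22 were at 15 days and 3 in ovary against testis, and the direction turned in 1, Slc6a8 in ovary against testis with no filter on missing values (0.00333, adjusted p = 0.999), where its other probe enters. For carriers higher at 15 days (6) the count was 15 with the comparison's own arrays only, 0 with run 2 only, and 3 to 6 with an array left out. For carriers lower at 15 days (22) it was 10 with run 2 only. With probes on all 21 arrays, 25 carriers could be tested, and the counts were 7 higher and 10 lower in ovary, 7 and 9 through the reference, 9 lower at 15 days, and 6 higher and 9 lower in the knockout. Carriers that differed between the knockout and 15 day ratios (2) numbered 1 with arrays scaled to 1 spread, 5 with no filter (87 carriers tested), 1 with probes on all 21 arrays, and 1 to 3 with an array left out, a setting chosen for this test after seeing the data. Other counts stayed within 1.5 times the reported ones. With an array left out, the counts in ovary against testis ran from 11 to 16 higher and 18 to 26 lower, and in the knockout from 15 to 18 higher and 17 to 18 lower. Apart from the smaller sets of probes, arrays or genes that these settings construct, the cause was not tested. The filter on the direct comparisons alone gives no ratio through the reference. No paired analysis was possible because the replicate numbers are only the deposit order and no label pairs arrays across comparisons.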
